A study of Mus musculus with 12 samples.

Results

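Major histocompatibility complex (MHC) class I antigen presentation is described here through 10 genes, chosen by name from the 50600 genes counted in the series: B2m, H2-K1, H2-D1, H2-T23, Tap1, Tap2, Tapbp, Psmb8, Psmb9 and Nlrc5. All 10 were detected in every library and passed the low-count filter. RNA was sequenced from 12 mice, 3 in each of 4 groups. Ctrl are thymocytes of DNMT1 fl/fl mice without Cre recombinase, aged 20 to 25 wk, and KO are thymocytes of DNMT1 fl/fl CD4-CRE mice, aged 20 to 21 wk, in which Cd4-driven Cre removes the DNA methyltransferase gene Dnmt1 in T cells. ALK are T cell lymphoma cells of NPM-ALK+ mice, aged 22 to 31 wk, which carry the human fusion kinase NPM-ALK under the Cd4 enhancer and promoter, and ALKKO are thymocytes of NPM-ALK+, DNMT1 fl/fl CD4-CRE mice, aged 19 to 25 wk. Ctrl, KO and ALKKO thus share the loxP-flanked Dnmt1 gene, which the labels of ALK do not name, and every mouse was male except the second KO mouse. ALK differed from all other groups in tissue as well as in genotype, so tumor and genotype cannot be told apart in any comparison with ALK. The paper gives the genetic background of its mice as mixed, from C57Bl6 and SV129. Libraries are named by group and replicate, as in KO2 or ALK2.

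Class I molecules show fragments of a cell's own and viral proteins to cytotoxic T cells. The proteasome cuts the proteins, the transporter of TAP1 and TAP2 carries the peptides into the endoplasmic reticulum, tapasin (encoded by Tapbp) holds the transporter next to the empty class I molecule, and the loaded complex of heavy chain and beta-2 microglobulin travels to the cell surface. Interferons raise the whole pathway, in part by replacing catalytic subunits of the constitutive proteasome with immunoproteasome subunits such as those of Psmb8 and Psmb9, and NLRC5 is the transactivator that binds class I promoters. In the thymus, class I molecules also select CD8 T cells, and immature double-positive thymocytes are known for low class I levels at the surface.

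Of the 10 genes, 8 lie on chromosome 17, in the MHC. In the GENCODE M21 annotation of GRCm38, Tapbp lies at chr17:33915899-33929292 and H2-K1 at chr17:33996017-34000347. Psmb9 (chr17:34181987-34187764), Tap1 (chr17:34187553-34197225), Psmb8 (chr17:34197721-34201454) and Tap2 (chr17:34203527-34216321) stand next to each other. H2-D1 (chr17:35262730-35267499) and H2-T23 (chr17:36029773-36032855) follow farther along. B2m lies at chr2:122147686-122153083 and Nlrc5 at chr8:94434356-94527272. Tap1 and Psmb9 run in opposite directions and overlap by 212 bases at their starts.

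The sequences just before the start sites of the light chain gene and of a classical heavy chain gene are shown because class I promoters share a set of short elements. They are the 250 bases before the start in the RefSeq promoters of GRCm38.p6, which held an entry for 8 of the 10 genes (not for Tap2 and Nlrc5), and capitals mark each match to 5 motifs searched on both strands. The motifs were the kappa B palindrome (the 11 capitals that open the H2-K1 stretch printed further on), 2 interferon response elements (GAAA or GAA, any 2 bases, then GAAA), the half-site TGACG and the box CCAAT. The H2-K1 window is chr17:34000348-34000597 on the minus strand, and the B2m window is chr2:122147437-122147686 on the plus strand.
H2-K1: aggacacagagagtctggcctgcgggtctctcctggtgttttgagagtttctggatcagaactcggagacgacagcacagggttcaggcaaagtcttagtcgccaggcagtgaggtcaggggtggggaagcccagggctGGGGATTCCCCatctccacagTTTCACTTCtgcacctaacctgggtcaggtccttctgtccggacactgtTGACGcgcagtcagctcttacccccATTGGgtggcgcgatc
B2m: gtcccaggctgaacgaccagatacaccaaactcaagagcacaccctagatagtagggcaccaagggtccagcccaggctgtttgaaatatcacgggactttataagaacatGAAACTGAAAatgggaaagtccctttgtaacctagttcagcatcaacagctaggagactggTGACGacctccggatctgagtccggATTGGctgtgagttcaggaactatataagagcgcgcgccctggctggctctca

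H2-K1 and H2-D1, the classical heavy chain genes, matched in 166 of 190 aligned bases of these windows (87.4%), and 30 bases of each are given to set the shared kappa B and interferon elements (in capitals) side by side. H2-T23, a nonclassical heavy chain gene, is added for its own interferon element. The stretches are chr17:34000429-34000458 (minus strand), chr17:35262923-35262952 (plus strand) and chr17:36032806-36032835 (minus strand).
H2-K1: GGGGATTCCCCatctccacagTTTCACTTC
H2-D1: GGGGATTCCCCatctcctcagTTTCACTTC
H2-T23: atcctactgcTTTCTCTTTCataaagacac

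The H2-K1 and H2-D1 stretches differ in 1 of 30 bases. The palindrome was matched in 2 of the 8 windows (H2-K1 and H2-D1), against 0.0304% of all 32851 promoters. Its bases are those of the H2-K1 element itself, which the H2-D1 stretch repeats, so the 2 matches follow from the choice of motif. The shorter interferon element was matched in the same 2 genes (6.31% of all promoters), and the longer in B2m and H2-T23 (2.98%). TGACG was matched in 5 of the 8 windows (17.8% of all promoters) and CCAAT in 7 of the 8 (33.8%), every one but Psmb8. The Tap1 and Psmb9 windows overlap by 225 bases and share their match to each of these motifs, so they are not separate stretches. By GENCODE M21, the windows of H2-D1, Tap1, Tapbp, Psmb8 and Psmb9 lie wholly in annotated exons, as do 154 of the 250 bases of H2-T23, and the H2-D1 and H2-T23 stretches lie inside the annotated genes.

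Gene counts summed to 12473857 to 18864327 in a library, and no gene of the 10 had fewer than 440 reads in any library. Levels are CPM (a gene's reads relative to all counted reads of its library, TMM-scaled in edgeR). The gene targeted by Cre, Dnmt1, was at 205 to 244 CPM in the 6 Cre libraries of KO and ALKKO, below the 400.0 to 487 CPM of Ctrl and the 379 to 788 CPM of ALK, and Alk, which carries the reads of the transgene, was at 34.9 to 55.0 CPM in ALK and ALKKO and at most 0.431 CPM in Ctrl and KO. T cell markers were found in every library, at a summed 3434 to 9153 CPM over 10 genes. KO2 stood apart from the other thymus libraries. Its 8 B cell markers summed to 2440 CPM against 73.9 to 127 CPM in the other 8 thymus libraries, none of the 8 being at 0 throughout, its 6 class II presentation genes to 10826 CPM against 2783 to 3970 CPM, and its 13 macrophage and dendritic cell genes to 2903 CPM against 690 to 1046 CPM. Its 10 T cell markers summed to 3434 CPM against 6268 to 9153 CPM in the other thymus libraries. Its 10 thymic epithelium genes summed to 612 CPM against 2632 to 4459 CPM. The 12 double-positive thymocyte markers fell to 3813 CPM in KO2 against 8972 to 11852 CPM in the others. Rag1 of that list and Itgam of the macrophage list were listed at 0 in all 12 libraries, which is no sign of absence, since double-positive thymocytes use Rag1. In ALK the class II genes summed to 260 to 533 CPM and the 10 thymic epithelium genes to 212 to 809 CPM, against 3442 to 3922 CPM and 3531 to 4459 CPM in Ctrl. The 8 stroma and endothelium genes summed to 1168 to 2533 CPM in ALK against 290 to 443 CPM in Ctrl. Of these 8, 4 were called higher and 0 lower by edgeR at an adjusted p under 0.05, beside 14.8% of all genes called higher. Their sum thus does not speak for each gene. The double-positive thymocyte markers summed to 2806 to 5069 CPM in ALK against 10470 to 11852 CPM in Ctrl, and the T cell markers to 4073 to 5071 CPM against 6876 to 9153 CPM. By the same rule 6 of the 11 tested double-positive markers and 3 of the 10 T cell markers were lower, and 0 higher. Of all genes 14.7% were called lower. These sums too do not speak for each gene. The part of these differences in the class I levels of ALK was not tested. RNA came from homogenised tissue, so fewer cells of a type and less RNA per cell cannot be told apart.

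**Figure D1:**
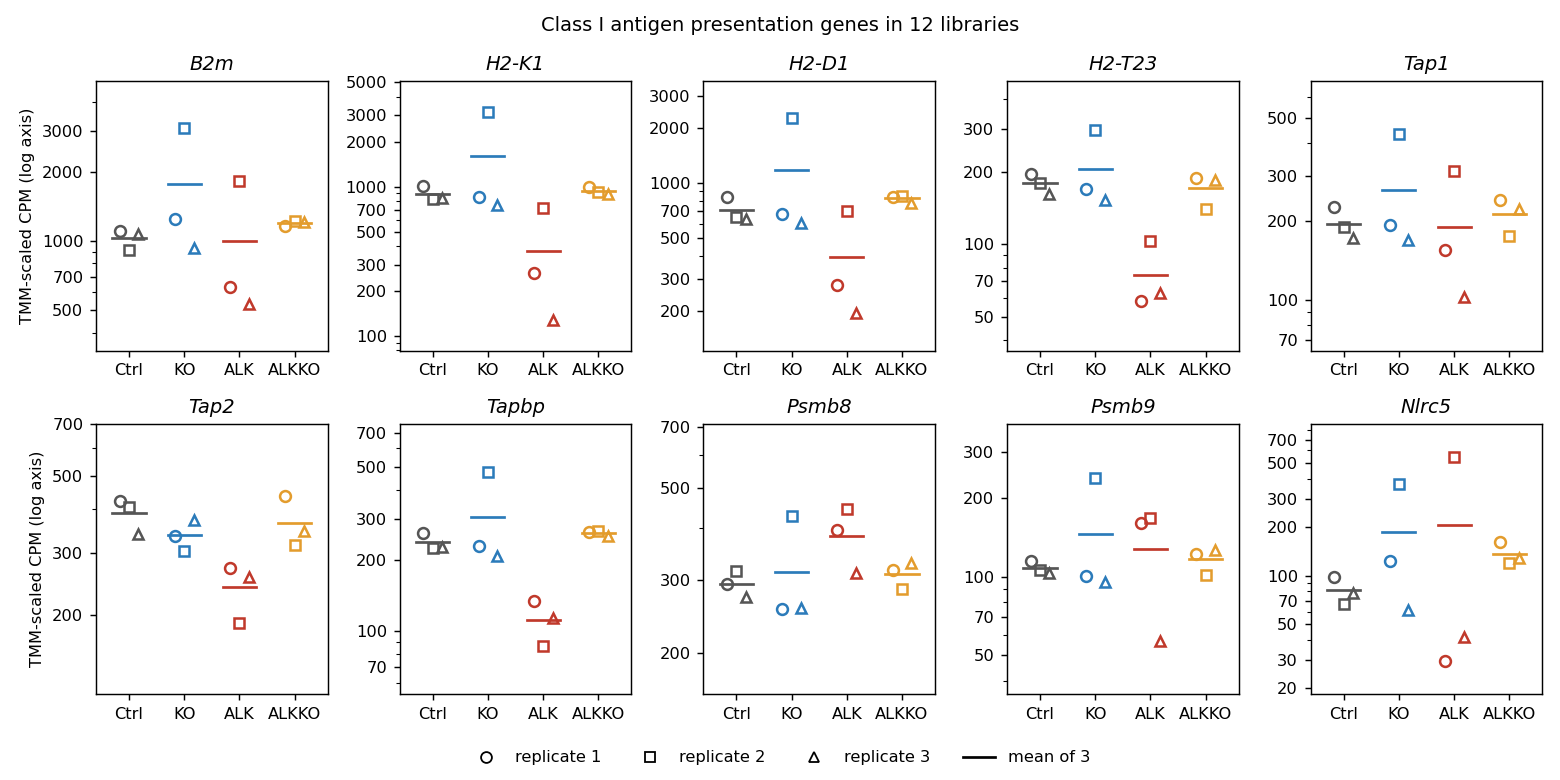
TMM-scaled CPM (log axis) of the 10 class I genes in the 12 libraries, by group; each symbol is 1 mouse, its shape the replicate number, and each line the mean of 3. KO2 (blue square) lies above every other thymus library in 9 of the 10 panels, all but Tap2, and ALK2 (red square) above the other ALK libraries in 8, all but Tap2 and Tapbp.

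B2m, which encodes the light chain shared by class I molecules, was the most abundant of the 10 per length. The Ctrl mice had 1109, 914 and 1073 CPM, the KO mice 1251, 3093 and 938, the ALK mice 631, 1823 and 535, and the ALKKO mice 1160, 1218 and 1208. The tumors lay on both sides of Ctrl, ALK1 and ALK3 below every thymus library and ALK2 above all of them but KO2. Its log2 fold change in ALK against Ctrl was -0.05 (95% interval -1.16 to 1.05, adjusted p = 0.95 edgeR, quasi-likelihood, Benjamini-Hochberg over 16052 genes).

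H2-K1 and H2-D1 encode the classical heavy chains, the chains that bind peptide. For H2-K1 the Ctrl mice had 1014, 827 and 837 CPM, the KO mice 858, 3185 and 749, the ALK mice 265, 716 and 128, and the ALKKO mice 999, 924 and 899.5. All 3 tumors lay below every thymus library, by -1.27 on the log2 scale against Ctrl (SE 0.636, adjusted p = 0.153 by the same test), which did not pass the threshold of 0.05. For H2-D1 the Ctrl mice had 839, 652 and 635 CPM, the KO mice 675, 2254 and 608, the ALK mice 278, 706 and 194, and the ALKKO mice 842.5, 854 and 781. ALK2 lay within the Ctrl range and the other tumors below it, the log2 change being -0.85 (SE 0.544, adjusted p = 0.258). ALK2 decided these values. Without it the log2 fold change was -2.20 for H2-K1 (adjusted p = 0.0338) and -1.61 for H2-D1 (adjusted p = 0.0557).

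H2-T23 encodes Qa-1, a nonclassical class I molecule read by the CD94/NKG2 receptors of natural killer cells. The Ctrl mice had 195, 179.9 and 161 CPM, the KO mice 169, 296 and 152, the ALK mice 57.85, 103 and 62.8, and the ALKKO mice 188, 139 and 184. No ALK value reached any thymus value. H2-T23 fell in ALK against Ctrl, by a log2 change of -1.26 (SE 0.287, adjusted p = 0.0097 by edgeR).

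Tap1 and Tap2 encode the partner chains of the peptide transporter. For Tap1 the Ctrl mice had 226, 190.0 and 172 CPM, the KO mice 193, 432 and 169.7, the ALK mice 155, 311 and 102, and the ALKKO mice 242, 176 and 223, with ALK2 above and the other tumors below the Ctrl range. For Tap2 the Ctrl mice had 424, 405 and 340.5 CPM, the KO mice 336, 305 and 374, the ALK mice 272, 189.9 and 257, and the ALKKO mice 438, 316 and 347. Tap2 was the only member that was not highest in KO2 or ALK2, and all tumors lay below all thymus libraries. Tap2 fell in ALK against Ctrl (log2 fold change -0.70, SE 0.179, adjusted p = 0.0155), and Tap1 had a log2 fold change of -0.05 (95% interval -0.98 to 0.88, adjusted p = 0.942). The difference between the 2 changes was not tested.

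Tapbp, the gene of tapasin, was at 262, 227 and 229 CPM in the Ctrl mice, at 229.9, 476 and 210.0 in the KO mice, at 134, 86.4 and 113 in the ALK mice and at 263, 266 and 255 in the ALKKO mice. Again no tumor reached a thymus library, and ALK2 was here the lowest of the 12. Tapbp fell in ALK against Ctrl, by a log2 change of -1.10 (SE 0.284, adjusted p = 0.0161). Of its exon bases, 24.9% are shared with an antisense gene and 4.11% with Zbtb22 on the same strand, so its count is less certain than the others.

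Psmb8 and Psmb9 encode the catalytic immunoproteasome subunits LMP7 and LMP2. For Psmb8 the Ctrl mice had 292, 314 and 272 CPM, the KO mice 255, 428 and 257, the ALK mice 394, 444 and 311, and the ALKKO mice 316, 285 and 329.5. For Psmb9 the Ctrl mice had 115, 106 and 103 CPM, the KO mice 101, 239.6 and 95.1, the ALK mice 161, 167 and 57.01, and the ALKKO mice 123, 102 and 127. ALK1 and ALK2 exceeded all Ctrl values in both genes and ALK3 in neither, and Psmb9 in ALK3 was the lowest of the 12. Neither gene passed the test in ALK against Ctrl, with log2 fold changes of 0.39 (SE 0.21, adjusted p = 0.186) for Psmb8 and 0.25 (SE 0.415, adjusted p = 0.676) for Psmb9.

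Nlrc5 varied most. The Ctrl mice had 98.5, 66.8 and 78.7 CPM, the KO mice 124, 371.8 and 61.75, the ALK mice 29.6, 546 and 41.7, and the ALKKO mice 162, 120.1 and 129. ALK2 held the highest and ALK1 the lowest value of all 12 libraries, a ratio of 18.5 within 1 group. The log2 fold change in ALK against Ctrl was accordingly imprecise, 1.34 (SE 0.973, 95% interval -0.82 to 3.49, adjusted p = 0.321), and its sign turned to -1.21 without ALK2 (adjusted p = 0.179).

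**Figure D2:**
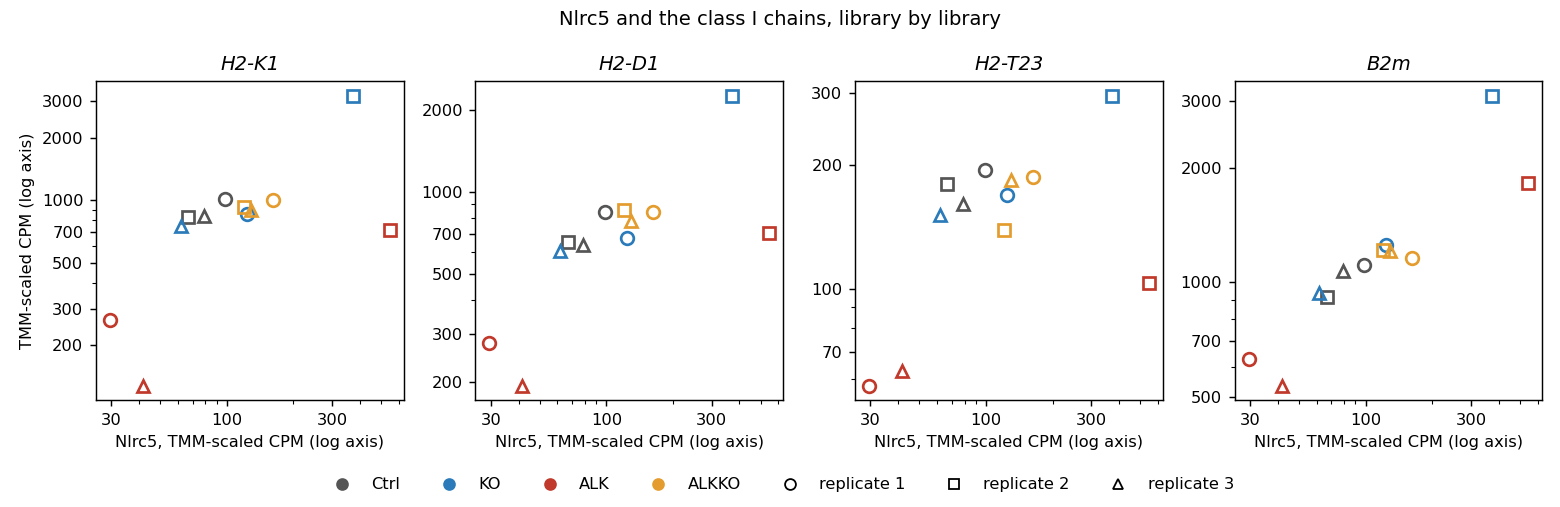
Nlrc5 (x axis) against H2-K1, H2-D1, H2-T23 and B2m (y axes), all in TMM-scaled CPM on log axes, 1 symbol per mouse, coloured by group. The tumor with 546 CPM of Nlrc5, ALK2, is the highest tumor in all 4 panels, yet has 716 CPM of H2-K1 where KO2, with 371.8 CPM of Nlrc5, has 3185 CPM.

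In ALK against Ctrl, the comparison of tumor cells with thymocytes, 3 of the 10 genes changed (H2-T23, Tap2 and Tapbp), all lower. Over all 16052 genes tested 29.5% were called at this threshold, 14.7% as lower, so the members were called at about the rate of other genes. The median log2 fold change of the 10 was -0.38, beside 0.05 over all genes, and 7 of the 10 were below 0, as were 47.4% of all genes. Groups did not overlap for 4 of the 10 (H2-K1 with the 3 above), all with ALK lower, beside 25.1% of all genes with ALK lower and 46.4% in either direction. Without Ctrl1, only H2-T23 kept its call (adjusted p = 0.0563 for Tap2 and 0.0534 for Tapbp), and without ALK2 the called members were H2-K1, H2-T23 and Tap2.

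Counted by tumor, 8 of the 10 genes lay below the Ctrl range in ALK1 and 2 above it (Psmb8 and Psmb9). In ALK3 9 lay below and 1 within it (Psmb8). In ALK2 4 lay below it (H2-K1, H2-T23, Tap2 and Tapbp), 1 within and 5 above (B2m, Tap1, Psmb8, Psmb9 and Nlrc5). The 4 genes below the Ctrl range in every tumor were thus H2-K1, H2-T23, Tap2 and Tapbp, of which H2-K1 did not pass the test. The share of all genes outside the Ctrl range was not counted for single libraries. A range of 3 mice is narrow, so these counts by tumor describe the libraries and are no result about the members.

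ALKKO1 lay above the Ctrl range in 8 of the 10 genes and below it in 0. ALKKO2 lay above it in 4 and below it in 3, and ALKKO3 above it in 4 and below it in 0. These counts too stand without a share over all genes. None of the 10 genes changed in ALKKO against Ctrl by edgeR's test, none had an unadjusted p under 0.05, and DESeq2's Wald test called none either (background 0.187% called by edgeR and 3.18% at an unadjusted p under 0.05). The median log2 fold change was 0.12, beside 0.01 over all genes. The intervals still allow sizeable changes in some genes, from -1.31 to 1.46 for H2-K1, and are narrow for Tap2 (-0.48 to 0.31). Each interval rests on the spread within all 4 groups of the fit, not on the Ctrl and ALKKO mice alone. For H2-K1 the SD (n = 3) was 105 CPM among Ctrl mice and 51.7 CPM among ALKKO mice. The same SD was 1376 CPM among KO mice and 308 CPM among the tumors. B2m and Nlrc5 were higher in all 3 ALKKO mice than in any Ctrl mouse, by log2 fold changes of 0.21 and 0.75, neither of which passed edgeR's test, and such a lack of overlap was found in 17.5% of all genes.

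Set directly against ALKKO, ALK showed 3 of 10 genes called lower (background 28.1% called, 14.7% as lower). They were H2-T23 at -1.19 on the log2 scale (SE 0.287, adjusted p = 0.0126), Tap2 with -0.62 (SE 0.179, adjusted p = 0.0277) and Tapbp with -1.23 (SE 0.284, adjusted p = 0.0104, all by edgeR's test). H2-K1 and H2-D1 also had every tumor below every ALKKO mouse, as 23.7% of all genes did, with log2 fold changes of -1.35 and -1.07 that did not pass (adjusted p = 0.136 and 0.164). This comparison and that of ALK against Ctrl share the ALK libraries, so their calls are not independent of each other. The call of Tap2 was lost without ALK2, ALKKO1 or ALKKO3 (adjusted p of 0.0805, 0.0988 and 0.0558), and without ALK2 H2-K1 and H2-D1 passed (adjusted p = 0.0324 and 0.0399).

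**Figure D3:**
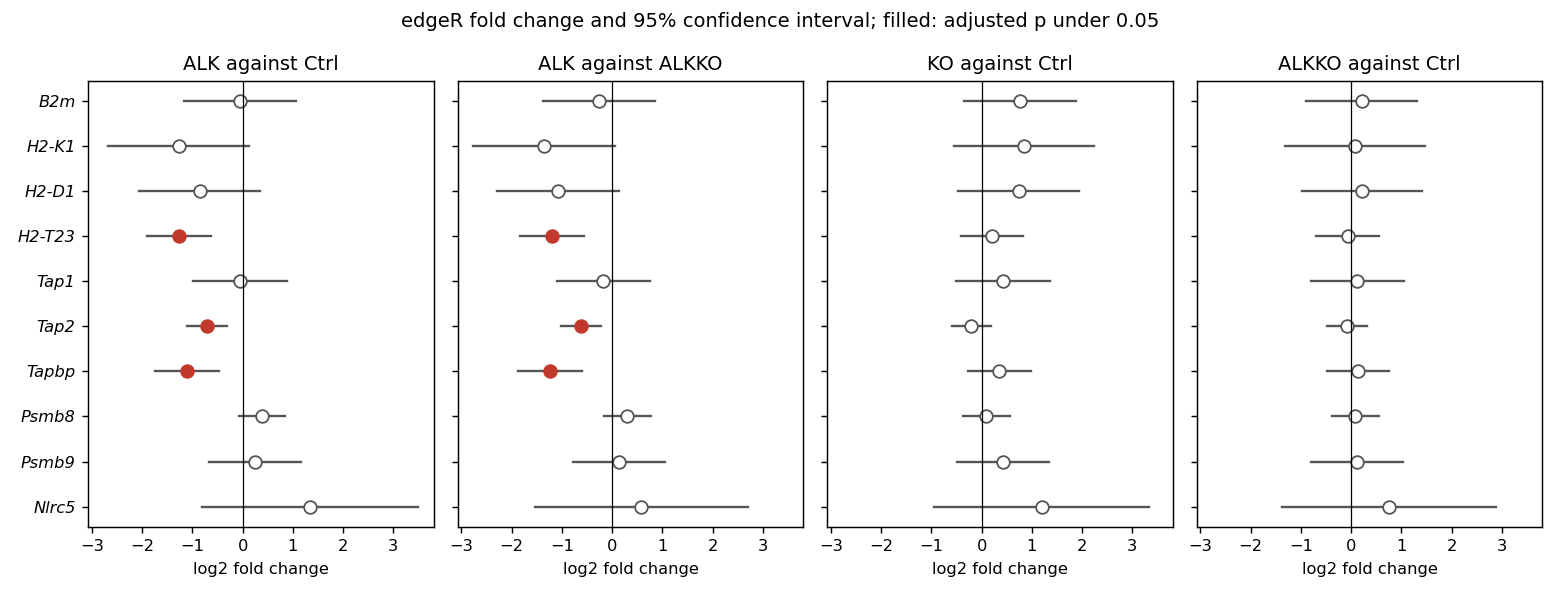
Log2 fold change (points) and 95% confidence interval (lines) of the 10 genes by edgeR in 4 comparisons; filled red points have an adjusted p under 0.05. H2-T23, Tap2 and Tapbp are filled in both comparisons of ALK, and no point is filled in KO or ALKKO against Ctrl.

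Loss of Dnmt1 without NPM-ALK was read in KO against Ctrl, groups that also differ in Cre. In this comparison none of the 10 genes changed by edgeR (background 0.0187%), none had an unadjusted p under 0.05 (background 5.52%), and none was called by DESeq2. The median log2 fold change was 0.43, but this value came from 1 mouse. KO2 exceeded the mean of KO1 and KO3 4.01-fold in Nlrc5, 3.96-fold in H2-K1, 3.52-fold in H2-D1 and 2.83-fold in B2m, and Tap2 alone was lower in it, at 0.859 of that mean. Without KO2 the median was -0.13, and the 10 log2 fold changes lay between -0.19 (Psmb8) and 0.19 (Nlrc5). KO3 lay below the Ctrl range in 8 of the 10 genes and KO1 in 3, again without a share over all genes. The B cell, class II and macrophage genes given above were high in the same library KO2. The T cell, double-positive thymocyte and thymic epithelium genes were low in it. KO2 also came from the only mouse that was not male. The part of these genes or of sex in its class I levels was not tested. In ALKKO against KO none of the 10 genes changed by edgeR or DESeq2 and none had an unadjusted p under 0.05 (backgrounds 0.00623% and 2.69%), and the median of -0.31 became 0.24 without KO2.

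Whether NPM-ALK acted differently with and without Dnmt1 was tested as an interaction, the change from Ctrl to ALK minus the change from KO to ALKKO. None of the 10 genes passed (background 10.3% of genes), and 3 had an unadjusted p under 0.05 (background 27.7%), Tap2, H2-T23 and Tapbp. Tap2 had the lowest adjusted p, at a difference of -0.82 on the log2 scale (SE 0.252, adjusted p = 0.0635, edgeR), and passed with DESeq2's Wald test (adjusted p = 0.0108). Without KO2 the differences were -1.38 for Tapbp (adjusted p = 0.00623) and -1.37 for H2-T23 (adjusted p = 0.0307). Without ALK1 Tap2 passed (adjusted p = 0.0391), so the calls here changed with single libraries and with the tool.

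Per kilobase of exon, in Ctrl, B2m stood far above the heavy chains, with 1200 ± 121 CPM per kb (SD, n = 3) against 304 ± 35.8 for H2-K1 and 275 ± 43.9 for H2-D1. The ranges of these 2 heavy chains overlapped, and both lay above Tap2 (103 ± 11.6) and Psmb8 (86.6 ± 6.17), whose own ranges overlapped. Tapbp (65.9 ± 5.45) and H2-T23 (61.8 ± 5.92) also overlapped, and below them came Tap1 (35.8 ± 5.03) and Psmb9 (29.4 ± 1.65), the last pair without overlap. Nlrc5 was lowest, at 9.58 ± 1.88. Per kilobase of 50-base windows found in no other gene, the order of H2-K1 (286) and H2-D1 (314) in Ctrl was the opposite, so it depends on the divisor used. These windows are pooled over all transcripts of a gene, so their number is not a length. H2-K1 has 3124 of them and 2938 exon bases. In ALK, per kilobase of exon, H2-K1 was at 126 ± 105 and H2-D1 at 152 ± 106, and Psmb8 (113 ± 19.9) came above Tap2 (63.4 ± 11.6) with no overlap, the reverse of the order of their means in Ctrl. The H2-D1 to H2-K1 ratio of CPM was 0.986 to 1.52 in ALK and 0.708 to 0.924 in the thymus libraries.

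Reads of near-identical copies bear on the heavy chains, since reads that aligned to several places were in no gene's count. Such alignments were 48.4 to 51.8% of all entries counted by HTSeq in ALK and 39.2 to 45.6% in the thymus libraries. A read can have several such entries, and their part in the heavy chain levels was not tested. Of all distinct 50-base windows of their annotated transcripts, 90.4% of those of H2-K1, 87.2% of H2-D1 and 85.5% of H2-T23 were found in no other gene, while the share was 100% for B2m and Psmb9, 99.7% for Nlrc5 and 99.6% for Tap1. Tapbp had the lowest share of the 10, 76.8%. Psmb8 and Tap2 share 14.7% and 18.5% of their exon bases with antisense genes, and Tap1 and Psmb9 share 3.87% and 5.79% of theirs with each other.

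Whether the proteasome shifted between its forms was read from ratios of CPM within each library, of each immunoproteasome subunit to the constitutive subunit it replaces. Psmb8 to Psmb5 was 9.998 to 13.5 in Ctrl, 11.01 to 24.3 in KO, 10.2 to 12.3 in ALK and 15.8 to 23.4 in ALKKO. All ALKKO ratios lay above all Ctrl ratios, a mean log2 difference of 0.79 (exact two-sided permutation test, p = 0.1, the smallest that 3 against 3 can give, 0.45 after adjustment over 9 tests). In these libraries Psmb5 was at 13.5 to 18.0 CPM in ALKKO and 23.3 to 27.2 CPM in Ctrl, while the ranges of Psmb8 overlapped. Psmb10 to Psmb7 was 0.94 to 1.08 in the Ctrl mice and 0.35 to 0.606 in the tumors, a mean log2 difference of -1.09 (exact permutation p = 0.1, adjusted p = 0.45). Psmb9 to Psmb6 was 0.659 to 0.844 in Ctrl, 0.362 to 0.896 in ALK and 0.733 to 1.02 in ALKKO, and its differences were -0.25 and 0.24 with overlapping groups. Apart from the pair at 0.1, the 7 tests gave an exact permutation p between 0.3 and 0.9. This test cannot reach 0.05 with 3 mice against 3.

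**Figure D4:**
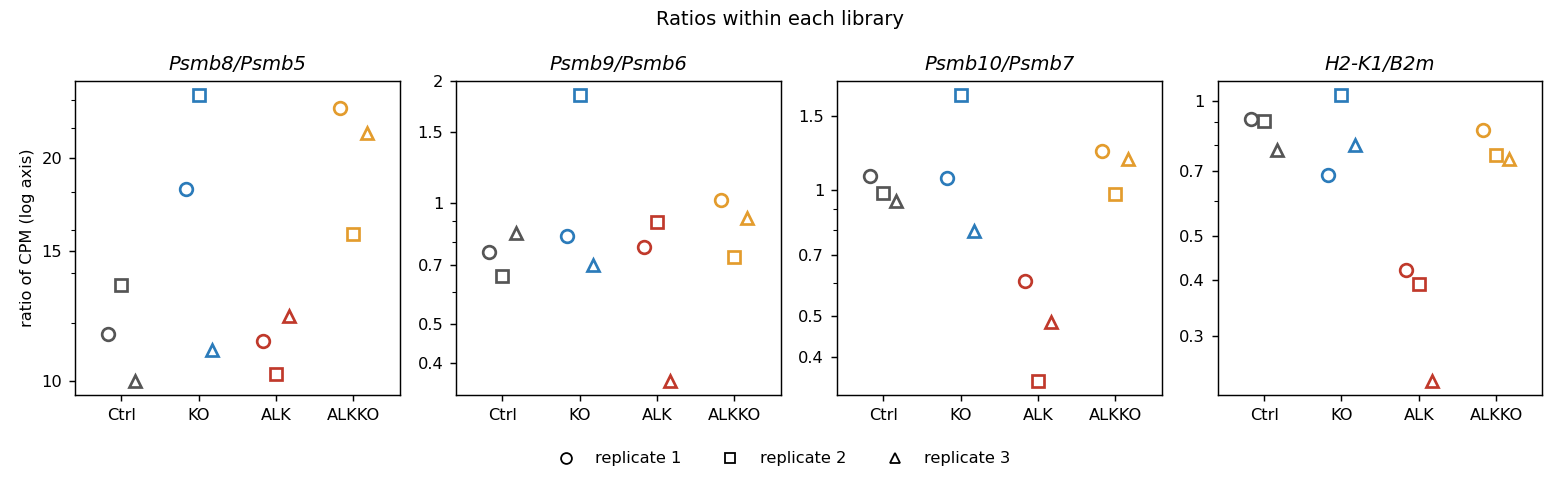
Ratios of CPM within each library (log axes), by group, 1 symbol per mouse: each immunoproteasome subunit over the constitutive subunit it replaces, and the H2-K1 heavy chain over the light chain B2m. Psmb10 over Psmb7 is at 0.35 to 0.606 in ALK and 0.94 to 1.08 in Ctrl, and Psmb8 over Psmb5 is at 15.8 to 23.4 in ALKKO and 9.998 to 13.5 in Ctrl.

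The rest of the pathway was read from lists of genes beside the 10, each compared in ALK against Ctrl with the background of 14.8% of genes called higher and 14.7% lower. Of 21 other class I heavy chain genes 18 were tested, and 4 fell and 0 rose (median log2 fold change -0.44, beside 0.05 over all genes). Mr1, whose product presents vitamin B metabolites, fell from between 155 and 160.2 CPM (Ctrl) to between 26.6 and 42.6 CPM (ALK) (log2 fold change -2.23, SE 0.308, adjusted p = 0.00107). H2-M2 fell from 17.5 to 42.0 CPM to 0.349 to 3.83 CPM (log2 fold change -4.06, adjusted p = 0.0027) and H2-T24 from 38.7 to 48.6 CPM to 2.44 to 11.9 CPM (log2 fold change -2.85, adjusted p = 0.0102, all by edgeR). Without ALK1 the 4 became 7, with 1 higher. In this list too, copies of the Q and T families share reads.

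Peptide loading and trimming genes stayed near the background, with 1 of 15 higher and 1 lower. Erap1, the aminopeptidase that trims peptides in the endoplasmic reticulum, rose from 82.4 to 104 CPM in Ctrl to 110.0 to 158 CPM in ALK (log2 fold change 0.50, SE 0.167, adjusted p = 0.0458), a call lost under 13 of its 19 alternatives. Without ALK1 3 genes of this list were higher. Npepps, a cytosolic aminopeptidase, fell from 145 to 184 CPM to 83.7 to 102 CPM (log2 fold change -0.85, SE 0.16, adjusted p = 0.00376).

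Of 5 further genes of the immunoproteasome and its activator, 2 fell. Psmb10, the remaining inducible catalytic subunit, fell from 98.1 to 124 CPM in Ctrl to 54.7 to 87.9 CPM in ALK (log2 fold change -0.75, SE 0.239, adjusted p = 0.0373), a call lost under 10 of its 19 alternatives. Psmb11, the subunit of the thymoproteasome of cortical thymic epithelium, was at 106 to 129.9 CPM in the Ctrl mice but 0.0672 to 0.349 CPM in the tumors, a level near that of 3 reads (adjusted p = 0.00047 by edgeR). Psmb11 is itself in the list of thymic epithelium markers. The sum of that list was low in the same libraries, so it is not separate from the fall of Psmb11. The part of the thymic epithelium in this fall was not tested. The activator genes Psme1 and Psme2 did not pass, with log2 fold changes of 0.44 (adjusted p = 0.273) and 0.26 (adjusted p = 0.574). Of 16 genes listed with the constitutive proteasome core, 1 rose and 0 fell (median 0.34). This list also holds Psme3 and Psme4, genes of proteasome activators rather than of core subunits. The gene that rose was Psma4, at 139 to 217 CPM in ALK and 71.6 to 87.3 CPM in Ctrl (log2 fold change 1.07, SE 0.176, adjusted p = 0.00224 by edgeR). Psmb5, Psmb6 and Psmb7, the constitutive catalytic subunits, did not pass. In ALK against ALKKO 7 of the 16 rose (background 13.4% higher). Among them were Psmb5 (log2 fold change 1.15, SE 0.251, adjusted p = 0.00824) and the activator gene Psme3 (0.54, adjusted p = 0.0274, both by edgeR). This count was 2 to 4 without Ctrl1, ALK1, ALK2 or any 1 ALKKO mouse, and 5 to 10 without any other library, while the 1 of ALK against Ctrl became 4 without ALK3.

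Of 29 genes known to regulate class I, 27 were tested, and 11 fell and 0 rose (median -0.51). Among them were Ciita, the class II transactivator related to Nlrc5 (26.3 to 57.8 CPM in Ctrl, 2.89 to 8.45 in ALK, log2 fold change -3.02, SE 0.725, adjusted p = 0.012), Relb, a subunit of NF-kappa B (36.7 to 49.3 CPM and 5.94 to 9.62 CPM, log2 fold change -2.51, adjusted p = 0.00357), and Ifngr1, a chain of the interferon gamma receptor (364 to 437 CPM in Ctrl, 38.8 to 160.5 in ALK, log2 fold change -2.05, adjusted p = 0.00461). Irf1 and Rfx5, which act on class I promoters, did not pass, with log2 fold changes of -0.51 (adjusted p = 0.206) and -0.13 (adjusted p = 0.639). The count of 11 became 6 without any 1 of the 3 Ctrl mice and 7 without ALK2, and it was 8 to 15 without any other library; 3 genes rose without ALK1. Class II genes, the targets of Ciita, were low in the same tumors. So were the 8 B cell markers, at a summed 8.03 to 19.5 CPM in ALK against 73.9 to 124.5 CPM in Ctrl. The macrophage and dendritic cell genes summed to 428 to 1204 CPM in ALK, on both sides of the 690 to 785 CPM of Ctrl. Of the 12 tested in that list 2 fell and 0 rose, beside 14.7% of all genes called lower, so the sum does not speak for each gene. The part of other cell types in these changes was not tested.

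Of 24 interferon-induced genes 19 were tested, and 13 fell and 0 rose in ALK against Ctrl (median log2 fold change -1.98). Cxcl10, a chemokine, was at 18.1 to 26.2 CPM in the Ctrl mice but 0.156 to 0.605 CPM in the tumors, near the level of 3 reads (log2 fold change -6.01, SE 0.666, adjusted p = 0.000417). Ifit1, an antiviral RNA-binding protein gene, was at 31.8 to 36.7 CPM and 0.611 to 1.75 CPM (log2 fold change -4.76, SE 0.553, adjusted p = 0.000481), and Ifit3 at 12.5 to 13.3 CPM and 0.611 to 1.09 CPM (log2 fold change -3.97, SE 0.735, adjusted p = 0.00366). The count of 13 became 8 without Ctrl1 and was 9 to 17 without any other library. In ALK2, which had 546 CPM of Nlrc5, Cxcl10 and Ifit1 were at 0.262 and 0.611 CPM. Both were named for their falls in ALK, so low values in every tumor follow from that choice. The other genes of the list are not given for ALK2 alone. In ALKKO against Ctrl and in KO against Ctrl none of the genes tested in these 6 lists changed by edgeR, with unadjusted p under 0.05 for 7 of the 100 genes in ALKKO and 6 of the 100 in KO, beside 3.18% and 5.52% of all genes.

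**Figure D5:**
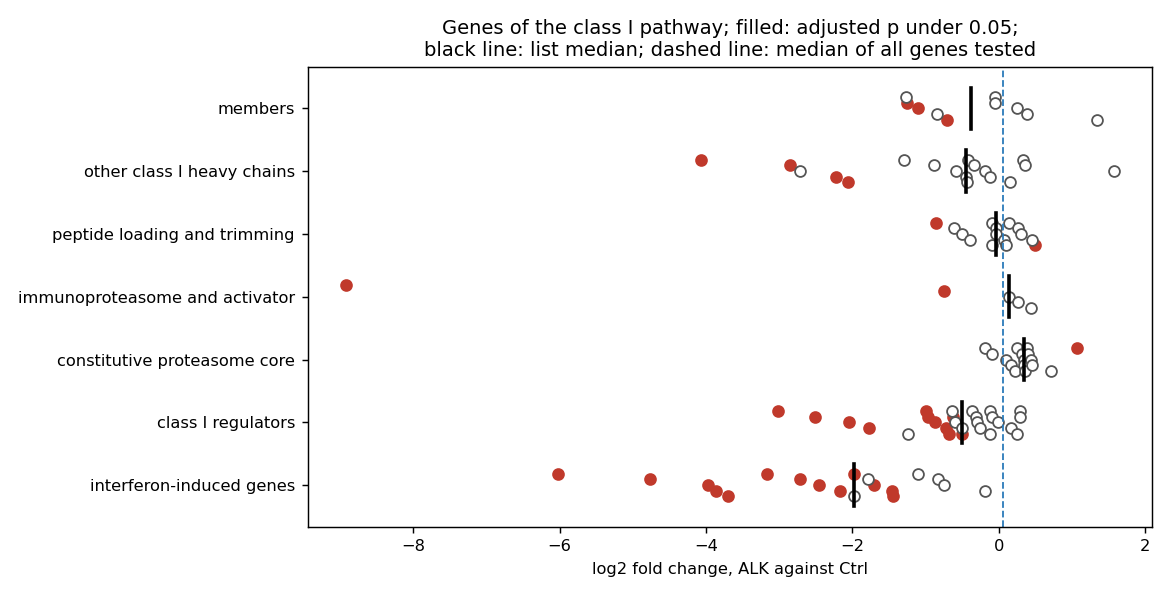
Log2 fold change in ALK against Ctrl (x axis) of the 10 genes (members) and of the tested genes of 6 lists of the class I pathway, 1 point per gene, filled red at an adjusted p under 0.05; black lines are list medians and the dashed line the median of all genes tested (0.05). The interferon-induced list has a median of -1.98 and 13 filled points of 19, and the members a median of -0.38 and 3 of 10.

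Among the genes whose levels followed the mean of the 10 most closely were Actr3, with a Pearson's r of 0.933 across the 12 libraries, Ptbp3 (0.932), B3gnt5 (0.931) and H2-Q7 (0.931), out of 11796 genes compared (log2(CPM + 1), each member centred and scaled). Without KO2, Armcx1 (0.92) and H2-Q7 (0.918) were among the closest across 11 libraries. These r describe libraries that share groups, and the high values of KO2, and no test was made on them. H2-Q7, a nonclassical heavy chain gene, was at 72.5 to 110.4 CPM in Ctrl, 557 CPM in KO2, 315 CPM in ALK2 and 22.2 and 14.5 CPM in the other tumors.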

How the data were processed

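Groups, replicate numbers and ages come from the labels. The authors made stranded poly(A) libraries, trimmed 50-base single-end reads, aligned them with STAR to mm10 and deposited raw counts of reads per gene by HTSeq. Tool versions other than Picard 2.19.2, the annotation release and the strand setting are not given in the sources used here. Reads that aligned to several places are in no count. Of 50600 gene IDs, 50376 matched GENCODE M21.

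edgeR 4.0.16 (R 4.3.3) was run on the counts of all 12 libraries: TMM, filterByExpr (16052 genes kept), 1 term per group, glmQLFit with robust estimation, glmQLFTest, Benjamini-Hochberg adjustment over all genes; a gene changed at an adjusted p under 0.05. A value of 3 counts equals 0.159 to 0.241 CPM, a floor for counting error only, while the 95% intervals rest on the spread between mice in the fit. Ratios were compared by exact permutation tests (SciPy 1.17.1). DESeq2 1.42.0 and the other alternatives stand in the closing section. The members, lists and promoter motifs were chosen with earlier results of these data known.

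Named genes are the 10 members, Psmb5, Psmb6, Psmb7, Psmb10, Psme1, Psme2, Irf1, Rfx5, Ciita, Dnmt1 and Alk, the 3 largest rises and falls of each list in ALK against Ctrl at an adjusted p under 0.05 and a mean of at least 1 CPM, and the 5 genes most like the members, with a mean of at least 5 CPM. 1 gene that this rule names is not reported here.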

Additional observations from a re-analysis of the deposited data

Results flagged for a closer look

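None of the 10 members had a transgene effect that differed between mice with and without Dnmt1 at an adjusted p under 0.05. Of 22 other genes under the naming rule, 7 did by edgeR's interaction test with Benjamini-Hochberg adjustment, beside 10.3% of all genes. Many of the 22 were chosen for their change in ALK against Ctrl, which is part of this difference, so the count is a description. The difference is the change from Ctrl to ALK minus the change from KO to ALKKO. It was -3.57 on the log2 scale for H2-M2 (adjusted p = 0.0343), -2.31 for Mr1 (adjusted p = 0.0106), -9.31 for Psmb11 (adjusted p = 0.00265), 1.05 for Psma4 (adjusted p = 0.0273), -2.36 for Ifngr1 (adjusted p = 0.0267), -5.22 for Cxcl10 (adjusted p = 0.00586) and -4.26 for Ifit1 (adjusted p = 0.0072). Psmb11 and Cxcl10 were near the level of 3 reads in ALK, so the size of their difference depends on the fit's prior count. H2-M2 in its lowest tumor and Ifit1 in ALK were also at low levels, so this limit bears on them too. ALK is tumor tissue and ALKKO thymus, so this difference cannot be told apart from that between tissues. Groups of 3 are too small for the test of single outlying samples used for larger groups.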

How the results depend on the processing

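Other size factors and tests (DESeq2), looser and stricter count filters (none, or 10 counts throughout), the replicate block, an age term, fits of the compared pair alone, an added fold threshold and the loss of each library were tried. The count of members changed in ALK against Ctrl was 1 to 3 over the libraries left out, and 1 without Ctrl1. No setting called a member in KO or ALKKO against Ctrl or in ALKKO against KO. In the interaction test, 0 members became 1 with DESeq2's Wald test and 1 with age as a covariate (Tap2 both times), and 0 to 2 over the libraries left out. The replicate numbers share no animal and do not pair the samples (correlations of deviations -0.143 to 0.445); the replicate block left 3 members in ALK against Ctrl and made 4 in ALK against ALKKO, with H2-K1 added (adjusted p = 0.0489). Fitting only ALK and ALKKO left 2.

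The mean log2 ratio differences turned sign in ALK against Ctrl for Psmb8 to Psmb5 (-0.15 to 0.063 over the libraries left out, 0.063 without Ctrl2 and 0.023 without ALK2) and Psmb9 to Psmb6 (-0.50 to 0.16, 0.16 without ALK3), and in KO against Ctrl for Psmb10 to Psmb7 (-0.12 to 0.42, -0.12 without KO2). CPM + 1 turned none. Per kilobase of 50-base windows found in no other gene, a divisor chosen after seeing the data, Ctrl levels moved to 116 (Tap2), 94.5 (Psmb8), 82.8 (Tapbp), 69.0 (H2-T23) and 27.7 (Psmb9) CPM per kb, and H2-D1 (314) came above H2-K1 (286). A length from unique positions of the genome was not run. The 95% intervals in ALK against Ctrl were widest for Nlrc5 (-0.82 to 3.49) and H2-K1 (-2.68 to 0.14), which limits what 3 mice a group can show for them. The cause of the changes above was not tested.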

Other observations

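The balance of heavy to light chain transcripts was looked at after the values were seen and is given without a test. The ratio of H2-K1 to B2m CPM was 0.421, 0.393 and 0.238 in ALK, below the 0.686 to 1.03 of all 9 thymus libraries, ALK2 included although its B2m level exceeded that of every Ctrl mouse. H2-D1 to B2m was 0.362 to 0.44 in ALK and 0.539 to 0.756 in the thymus libraries. H2-T23 to B2m was 0.0567 to 0.117 in ALK and overlapped with KO2 (0.0959) and ALKKO2 (0.114). Reads of the heavy chains can be lost to near-identical copies. The mice were of mixed background, and the allele carried by each tumor or thymus was not analysed here.

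The neighbours Tap1 and Psmb9, whose starts overlap, had a ratio of Tap1 to Psmb9 CPM of 1.67 to 1.98 in 11 libraries and 0.967 in ALK1.

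Among other heavy chain genes, some differed widely between tumors. H2-T3 was at 1066 CPM in ALK1 and at 4.71 and 4.14 CPM in ALK2 and ALK3, against 282 to 649 CPM in Ctrl. H2-Q6 was at 190.4 CPM in ALK2 and at 3.22 and 5.79 CPM in ALK1 and ALK3, against 108 to 135 CPM in Ctrl. H2-Q4 was at 20.3 CPM in ALK3 and at 244 and 161 CPM in the others. These 3 genes were chosen after their values were seen, and 63.6% of the transcript windows of H2-Q4 and 65.0% of those of H2-Q6 are found in no other gene.

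Among the guanylate-binding protein genes, which interferon gamma induces, Gbp2 was at 100.2 to 139 CPM in ALKKO and 60.2 to 65.45 CPM in Ctrl, and Gbp5 at 29.96 to 42.4 CPM and 12.9 to 18.55 CPM. In KO they were at 66.1, 174 and 61.9 CPM and at 18.4, 94.2 and 19.9 CPM, highest in KO2. The log2 fold changes against Ctrl were 0.93 in ALKKO and 0.69 in KO for Gbp2, and 1.13 and 1.46 for Gbp5, and none passed by edgeR's adjusted p. Gbp6 was listed at 0 in all libraries. These genes too were chosen after their values were seen.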
